A study of Homo sapiens with 18 samples.

Results

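The cytosolic ribosomal protein genes were followed through RNA sequencing of a human neuroblastoma line. They were chosen by name alone, as the protein-coding Ensembl genes whose symbols are RPL or RPS with a number, RPLP0, RPLP1, RPLP2 or RPSA, leaving out the RPS6 kinases. This gave 84 of the 57905 Ensembl genes counted. Of these, 52 belong to the large subunit, including 3 proteins of the lateral stalk, and 32 to the small subunit, and 7 of the 84 are paralogs of another member.

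The cells were BE(2)-m17, an established neuroblastoma line. Every group carried a human APP vector, pSBbi-Hyg-APP, selected with hygromycin B. The control wells carried in addition the empty vector pSBbi-Pur, and these are called Puro. The others carried the same backbone with a codon-optimised ABCC1, a membrane transporter, and are called ABCC1(WT). Both were selected with puromycin. The lines are stable, antibiotic-selected lines made with a Sleeping Beauty transposase, and whether they are pools or clones is not given in the sources used here. The medium was renewed daily, and RNA was taken on the fourth day after plating. The 18 libraries fall into 3 experiments called RNA1, RNA2 and RNA3, each with 3 Puro and 3 ABCC1(WT) libraries. RNA1 was made with a kit that selects polyadenylated mRNA and sequenced on a NextSeq500. For RNA2 and RNA3 the libraries came from a total RNA kit and were read on a NovaSeq instrument. Kit, instrument, run and culture cannot be told apart between RNA1 and the other experiments. The later experiments used cryopreserved cells and freshly transfected cells, and the labels do not tell which of them is RNA2 and which is RNA3. The study's methods describe platings repeated each week, a well for each line, while the labels do not tie a library to a week. The p-values measure the spread between such wells of the same lines.

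The ribosome is built from a large and a small subunit, each a scaffold of ribosomal RNA clothed in proteins that are mostly encoded by single genes. These mRNAs are among the most abundant in growing cells. Most begin with a cytosine followed by a run of pyrimidines, the 5′ terminal oligopyrimidine tract, through which mTORC1 and LARP1 adjust their translation together. The same genes have left many processed pseudogenes, copies of the spliced mRNA inserted elsewhere in the genome, and reads that align equally well to a gene and to its copies cannot be assigned to either. A few members also have a second functional gene, a paralog such as RPL22L1 for RPL22 or RPL39L for RPL39.

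The starts of the transcripts show what most members share beyond their names. The windows below run from 20 bases before to 10 bases from a start listed by RefSeq on GRCh38.p14, read along the gene. Capitals mark the run of C and T that begins at the start itself. RPS6 and RPLP0 are shown as typical members. RPL22 and RPL22L1 are shown because their ratio separated the lines in each experiment, and RPL29 and RPL36 because they were called higher with ABCC1(WT) in RNA1. RPS26 and RPS27L are shown because their listed start is not in such a run.
RPS6 (chr9:19380227-19380256, minus strand): gcgctaagcggaagttggccCTCTTTTCCg
RPLP0 (chr12:120201102-120201131, minus strand): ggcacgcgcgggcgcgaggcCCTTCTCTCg
RPL22 (chr1:6199586-6199615, minus strand): ctgcgtagttcgctcacctcCCTTTCTaac
RPL22L1 (chr3:170870186-170870215, minus strand): gaccgcgcggccgtagcttcCTCTCTgctc
RPL29 (chr3:51995886-51995915, minus strand): tgctgcaccgcagcccctttCTCTTCCggt
RPL36 (chr19:5690275-5690304, plus strand): gagttccgcgcggcgccagcCCTTCCgcca
RPS26 (chr12:56041898-56041927, plus strand): gctgggagacacataacctcgattttcttc
RPS27L (chr15:63157468-63157497, minus strand): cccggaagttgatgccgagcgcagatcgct
Of the 84 genes, 67 had a listed start. Some genes have several listed starts, and a gene was counted if any of them qualified, in every set compared. A start at C with at least 5 pyrimidines in a row was found in 47 of these 67 (70.1%), against 5.14% of the 27305 genes in the same table and 6 of 69 genes for mitochondrial ribosomal proteins. Among the paralogs with a listed start, 1 of 5 had it, and that gene was RPL22L1. The match depends on the exact base that RefSeq lists as the start and is a description of the letters only.

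The counts on these genes were deep in every library. RNA1 libraries held 27433390 to 57937596 counts, RNA2 libraries 19577852 to 30996228 and RNA3 libraries 8866994 to 13332413, of which 470791 to 3295390 fell on the 84 genes. The transgene checked the labels. The codon-optimised ABCC1 took 0 to 15 counts in Puro libraries and 51035 to 594404 in ABCC1(WT) libraries. All 13 markers of sympathetic neuroblastoma listed for this check, among them DBH and MYCN, were above 1 CPM (library-scaled counts, the total set to 1e6) on average in every group. No 2 libraries of a group agreed within sampling noise, since their chi-square per degree of freedom lay between 1.49 and 22.7. Reads on 356 silent olfactory receptor genes, a measure of background, were 0.00379 to 0.00546 CPM per kb of exon in RNA1, 0.122 to 0.773 in RNA2 and 1.05 to 1.80 in RNA3. This background was lower on average with ABCC1(WT) in each experiment (0.00407 ± 0.000313 against 0.00499 ± 0.000416 in RNA1, 0.289 ± 0.157 against 0.626 ± 0.130 in RNA2 and 1.21 ± 0.250 against 1.66 ± 0.239 in RNA3, SD, n = 3 each), and its part in the results below was not tested except where it is entered as a covariate.

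The 84 genes together took a larger share of the protein-coding counts in RNA2 than in the other experiments. In RNA1 the share was 5.33%, 5.40% and 5.40% in the Puro libraries and 5.86%, 5.78% and 5.67% in the ABCC1(WT) libraries, so that the groups did not overlap. In RNA2 it was 14.6%, 11.8% and 14.3% in Puro and 14.1%, 15.1% and 13.7% in ABCC1(WT), and the groups overlapped. In RNA3 it was 6.61%, 7.27% and 7.19% in Puro and 7.36%, 8.25% and 8.02% in ABCC1(WT), again without overlap. Which groups separate depends on the denominator. As a share of all counts the members took 10.49%, 9.27% and 10.48% in Puro and 10.604%, 11.5% and 10.63% in ABCC1(WT) libraries of RNA2, without overlap, and 4.97%, 5.84% and 5.31% against 5.602%, 6.19% and 6.06% in RNA3, with overlap, while RNA1 did not overlap on either. With 3 libraries against 3, a two-sided exact permutation test cannot give a p below 0.1, so that test cannot pass a threshold of 0.05 on this share within one experiment.

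**Figure D1:**
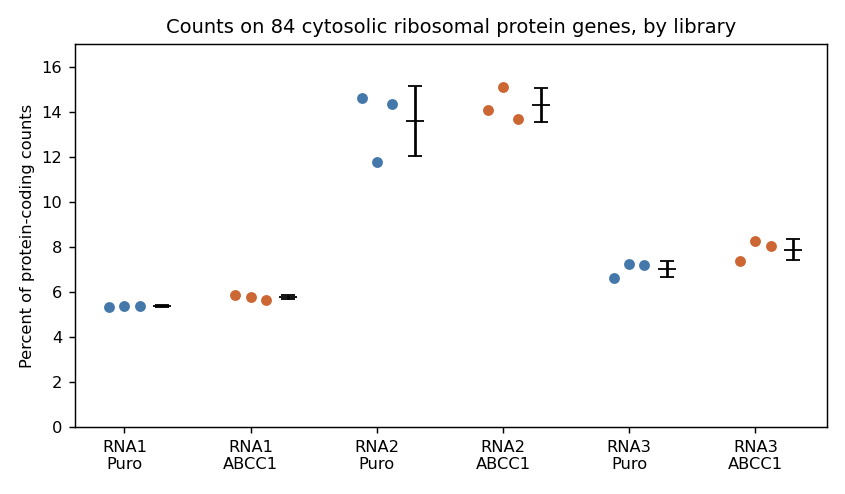
Percent of protein-coding counts that fell on the 84 cytosolic ribosomal protein genes (vertical axis) in each library, by experiment and line; points are libraries and the dash with bars is the mean ± SD of 3. RNA2 libraries lie between 11.8% and 15.1%, above all RNA1 and RNA3 libraries, and ABCC1(WT) lies above Puro without overlap in RNA1 and RNA3, whereas as a share of all counts it does so in RNA1 and RNA2.

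Levels per kb of exon, which allow genes of different length to be compared, spanned several orders of magnitude within an experiment. The median member stood at 149.7 CPM per kb in RNA1, 325 in RNA2 and 160.2 in RNA3 (mean of 6 libraries). In RNA1 RPS6, the small subunit protein that the S6 kinases phosphorylate, was among the highest at 1212 to 1317 CPM per kb over the 6 libraries, and RPL8, of the large subunit, at 900.4 to 987. These ranges did not overlap. In RNA2 the highest was RPL13A, of the large subunit, at 3306 to 4925 CPM per kb. RPS2, at 1310.3 to 1986, and RPL5, which carries 5S ribosomal RNA, at 1396 to 1974, followed with ranges that overlapped each other but not that of RPL13A. In RNA3 RPL13A led again at 1202 to 1923 CPM per kb, and its range touched that of RPLP0, the scaffold of the stalk, at 699 to 1243, which in turn overlapped that of RPS2 at 725 to 1087.

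The bottom of the order held genes of a different kind. RPL3L and RPL10L, paralogs known for striated muscle and testis, were at 0.0431 and 0.0364 CPM per kb in RNA1. RPL3L was at 0.974 in RNA2 and 3.17 in RNA3, and RPL10L at 0.353 and 0.514, which rises in the same order as the olfactory receptor background. RPL36A, of the large subunit, was at 0.820, 2.91 and 2.12 CPM per kb. The low values of RPL36A cannot be read as low transcription. Of the 75-base windows of its transcript 73.0% also occur in another gene of the annotation, and 69.6% occur in a pseudogene. Read pairs that fit several places, or that fell on exons shared with another gene, were not counted. The windows do not tell these losses apart.

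The order of the members was much the same in the experiments made with one kit. Over the 84 genes, the level per kb in RNA2 and RNA3 gave a Spearman correlation of 0.899, against 0.545 between RNA1 and RNA2 and 0.638 between RNA1 and RNA3. These are descriptions across genes, which share libraries and are not independent.

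The first comparison asks whether the ribosomal protein mRNAs differed between ABCC1(WT) and Puro cells when polyadenylated RNA was sequenced. In RNA1 they differed little as a group. Of 81 members tested, 11 rose and 2 fell with ABCC1(WT) (edgeR quasi-likelihood test, Benjamini-Hochberg adjusted p at most 0.05), where 37.6% of all 16995 genes tested were called, 17.9% higher and 19.7% lower. The 13.6% of members that rose is thus below the share of all genes. The median log2 fold change was 0.08 over the members and 0.01 over all genes tested, and 61 of the 81 members lay above 0, against 51.2% of all genes. At an unadjusted p under 0.05 there were 20 members higher and 4 lower, against 23% and 23.7% of all genes. The groups did not overlap for 19 members that were higher and 5 that were lower, against 24.7% and 25.7% of all genes. The members that rose did so by small amounts, between 0.13 and 0.32 on the log2 scale.

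Among those that rose in RNA1 were RPL29 of the large subunit, at 242, 247 and 241 CPM in Puro and 279.9, 271 and 359 CPM in ABCC1(WT) libraries. All ABCC1(WT) libraries were above all Puro libraries, and the third ABCC1(WT) library stood highest. The log2 fold change was 0.32 ± 0.09 (SE, adjusted p = 0.0236), and it was 0.18 without that library. RPS15A, a small subunit protein, rose by a log2 fold change of 0.28 ± 0.07 (adjusted p = 0.00713), from 38.1, 40.2 and 38.5 CPM to 44.0, 45.3 and 51.9 CPM, without overlap. RPL36 was at 1166, 988 and 1071 CPM in Puro and 1252, 1197 and 1358 CPM in ABCC1(WT), a log2 fold change of 0.24 ± 0.07 (adjusted p = 0.0165). RPS27A, which is made as a fusion to ubiquitin, rose by 0.17 ± 0.06 (adjusted p = 0.0350), and RPS27 and its paralog RPS27L rose by 0.26 ± 0.09 (adjusted p = 0.0404) and 0.23 ± 0.07 (adjusted p = 0.0231). The smallest rises were those of RPL10A (0.15 ± 0.04), RPS9 (0.14 ± 0.04) and RPL37 (0.13 ± 0.05). The other genes that rose, named here after their values were seen, were RPS29 (0.20 ± 0.04) and RPS14 (0.16 ± 0.05).

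The 2 members that fell in RNA1 were RPL22L1, described further on, and RPS26, which lies at the mRNA exit channel of the small subunit. RPS26 was at 7.63, 5.58 and 5.71 CPM in Puro and 5.25, 4.80 and 4.36 CPM in ABCC1(WT), without overlap, and its log2 fold change was −0.41 ± 0.13 (adjusted p = 0.0306). These levels are low for a core protein. Without Puro library 1 the value was −0.24 (adjusted p = 0.153). In RNA2 RPS26 was at 143, 176 and 173 CPM in Puro and 198, 221 and 191 CPM in ABCC1(WT), where the groups did not overlap in the other direction (0.31 ± 0.18, adjusted p = 0.303). In RNA3 the log2 fold change was −0.013 ± 0.19 (adjusted p = 0.984). Of its 75-base windows 54.8% occur in pseudogenes.

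The RNA1 calls rested on which libraries entered. Without the third ABCC1(WT) library 28 members rose, against 22.4% of all genes in that fit. Without Puro library 1, 2 or 3 there were 4, 6 and 3, against 13%, 12.3% and 11.2% of all genes. The number that fell went from 2 to 0 without Puro library 1 and to 1 without Puro library 3 or without ABCC1(WT) library 2. With the olfactory background as a covariate no member was called, where 1255 of all 16995 genes were. Sharing the spread across the 18 libraries left 1 member higher and none lower, where 1528 of 46225 genes were called. That fit also took its scaling and gene filter over the 18 libraries. The third ABCC1(WT) library stood apart from the other two in several members. RPL39, a short protein that lines the exit tunnel, was at 5.86, 5.95 and 6.22 CPM in Puro and at 7.29, 7.25 and 14.3 CPM in ABCC1(WT), a log2 fold change of 0.70 ± 0.26 that missed the threshold (adjusted p = 0.0642) and passed it without any single ABCC1(WT) library, at 0.28 (adjusted p = 0.0143) without the third. RPL41 was at 576 to 684 CPM in Puro and at 772, 790.2 and 404 CPM in ABCC1(WT). In the same libraries the 5 fibroblast markers summed to 134 to 138 CPM in Puro and 206 to 209 CPM in ABCC1(WT), chiefly LUM and DCN, while the 4 immune markers summed to at most 0.257 CPM in any library. The neuroblastoma markers summed to 13180 to 14299 CPM in Puro and 11363 to 12946 CPM in ABCC1(WT). The part of these lists in the RNA1 differences was not tested.

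In RNA2 the members lay above 0 almost throughout, but none passed the test. Of 83 tested, 77 had a positive log2 fold change and 6 a negative one, against 40.7% and 59.3% of the 34091 genes tested. The median was 0.32 over the members, −0.19 over all genes and 0.06 over protein-coding genes. The members' median was 0.18 when only protein-coding genes entered and 0.20 under a minimum of 10 counts per library. Entering the olfactory background as a covariate gave medians of 0.26 over the members and 0.076 over all genes. In that fit 0 members and 9 of 34091 genes were called. At an adjusted p of at most 0.05 the edgeR quasi-likelihood test called 0 members in either direction, where 1.7% of all genes were called, 1.25% higher and 0.458% lower. At an unadjusted p under 0.05 it gave 25 members higher and 1 lower, against 10.6% and 10.7% of all genes, and DESeq2 called 36 higher and 0 lower, against 16% and 2.39% of the genes it gave an adjusted p, with 2 members left without one. In 42 of the 83 members every ABCC1(WT) library exceeded every Puro library, against 13.5% of all genes, and in none was the reverse true, against 16.4%. RPL36 was at 445, 427 and 421 CPM in Puro and 709, 590.1 and 563 CPM in ABCC1(WT), a log2 fold change of 0.53 ± 0.19 (adjusted p = 0.119). RPLP0 was at 3342, 3464 and 3607 CPM in Puro and 5155, 4640.3 and 4298 CPM in ABCC1(WT), a log2 fold change of 0.44 ± 0.21 (adjusted p = 0.227). The groups did not overlap for either gene. Immune markers summed to 8.86 to 11.4 CPM in Puro and 2.02 to 7.38 CPM in ABCC1(WT) libraries of RNA2, the endothelial markers to 14.9 to 26.4 and 6.15 to 12.3 CPM, and the epithelial markers to 10.004 to 18.6 and 3.86 to 8.55 CPM. The neuroblastoma markers summed to 7218 to 8999 CPM in Puro and 9231 to 10203 CPM in ABCC1(WT). None of these lists overlapped between the lines there, and their part was not tested.

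In RNA3 the picture was similar but with more overlap between libraries. Of 83 members tested, 78 had a positive log2 fold change, and 5 a negative one, against 41.6% and 58.4% of the 36509 genes tested. The median was 0.26 over the members and −0.09 over all genes. The edgeR quasi-likelihood test called 0 members higher and 1 lower, where 2.8% of all genes were called, 2.03% higher and 0.767% lower. The unadjusted p was under 0.05 for 7 members higher and 1 lower, against 7.58% and 7.63% of all genes, and DESeq2 called 7 higher and 1 lower, against 12.7% and 1.24% of the genes it gave an adjusted p, with 7 members left without one. Without Puro library 2, which had the largest member share and the lowest olfactory background of the Puro libraries, 35 members rose, against 5.99% of all genes in that fit. With the olfactory background as a covariate the median over the members turned to −0.089. Fibroblast markers summed to 118 to 134 CPM in Puro and 100.6 to 113 CPM in ABCC1(WT), immune markers to 30.5 to 32.5 and 17.96 to 21.2 CPM, and endothelial markers to 46.1 to 57.3 and 36.3 to 44.9 CPM. Epithelial markers overlapped between the lines, and the part of these lists was not tested. The groups did not overlap for 3 members that were higher, RPL36, RPL35A and RPS27L (the second named after its values were seen), against 8.59% of all genes, and for 1 that was lower, RPL22L1, against 10.9%. RPL36 was at 470.4, 621 and 504 CPM in Puro and 656, 809 and 792 CPM in ABCC1(WT), a log2 fold change of 0.50 ± 0.22 (adjusted p = 0.224).

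**Figure D2:**
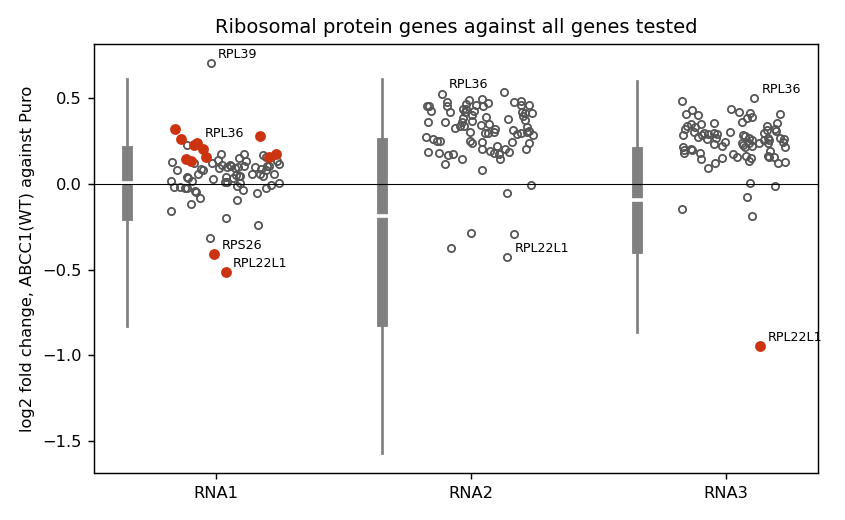
Log2 fold change of ABCC1(WT) against Puro (vertical axis) for each ribosomal protein gene tested in RNA1, RNA2 and RNA3; filled points passed an adjusted p of 0.05, and the grey bar to the left shows all genes tested (white dash: median, thick: 25th to 75th percentile, thin: 5th to 95th). Nearly all members lie above 0 in RNA2 and RNA3 without being called, and RPL22L1 is the lowest member in all 3 experiments.

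RPL36 was the only one of the 81 members tested in all 3 experiments whose ABCC1(WT) libraries exceeded every Puro library each time, which is 1.23% of the members against 6.69% of the 16689 genes tested in all 3. The reverse held for 0 members and 1.52% of all genes. A positive log2 fold change in each experiment was seen in 59 of the 81 members (72.8%) and in 32.3% of all genes, and a negative one in 2, RPL22L1 and RPL39L, against 17.6%. The difference of the ABCC1(WT) effect between experiments was tested in 1 model over all 18 libraries. It was called for 0 of the 84 members and for 1.19% of all 46225 genes by the edgeR quasi-likelihood test. At an unadjusted p under 0.05 there were 0 members and 9.04% of all genes. DESeq2 called 0 members and 877 of the 31765 genes it gave an adjusted p. That no difference was called does not show that the experiments gave equal effects.

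RPL22L1, the paralog of RPL22, had the lowest log2 fold change of all members tested in each experiment and passed the test in RNA1 and RNA3. In RNA3 it was at 51.0, 67.1 and 69.8 CPM in Puro and 30.7, 34.2 and 32.7 CPM in ABCC1(WT). All ABCC1(WT) libraries lay well below all Puro libraries, and the log2 fold change was −0.95 ± 0.16 (adjusted p = 4.23e-05), about 0.519 of the Puro level. In RNA1 it was at 32.6, 36.0 and 38.1 CPM in Puro and 28.5, 29.2 and 17.2 CPM in ABCC1(WT), again without overlap, a log2 fold change of −0.52 ± 0.18 (adjusted p = 0.0485). In RNA2 it was at 134, 115 and 194 CPM in Puro and 110.1, 129 and 90.7 CPM in ABCC1(WT), and the groups overlapped (−0.43 ± 0.20, adjusted p = 0.215). Leaving out 1 library moved this value between −0.57 without Puro library 2 and −0.17 without Puro library 3. The RNA3 call held in all 14 alternatives tried, with log2 fold changes from −1.09 to −0.83. In RNA1 the call held in 7 of 14, and DESeq2 gave an adjusted p of 0.132. Without the third ABCC1(WT) library of RNA1 the log2 fold change was −0.30 (adjusted p = 0.000385).

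Its parent gene RPL22, a protein of the large subunit, did not pass the edgeR test in any experiment. RPL22 was at 190.5, 198 and 203 CPM in Puro and 233, 233 and 163 CPM in ABCC1(WT) in RNA1 (log2 fold change 0.09 ± 0.12, adjusted p = 0.602), with an overlap made by the third ABCC1(WT) library. The values were 0.34 ± 0.20 (adjusted p = 0.338) in RNA2 and 0.25 ± 0.21 (adjusted p = 0.623) in RNA3. RPL22 was called higher without the third ABCC1(WT) library in RNA1 (0.25, adjusted p = 3.72e-06) and without Puro library 2 in RNA3 (0.49, adjusted p = 0.0283). Taken per kb, RPL22L1 amounted to 36.1%, 38.3% and 39.6% of RPL22 in the Puro libraries of RNA1 and to 25.8%, 26.4% and 22.3% in the ABCC1(WT) libraries. In RNA2 these were 23.6%, 23.2% and 28.1% in Puro and 14.04%, 16.7% and 13.7% in ABCC1(WT). In RNA3 they were 32.6%, 25.6% and 37.1% against 15.4%, 12.4% and 13.1%. The ratio was lower in every ABCC1(WT) library than in every Puro library of its experiment. It compares 2 genes within a library and so does not depend on the scaling between libraries, but it does not say which of them moved, and it was looked at after the single-gene results. RPL22L1 lies at chr3:170582664-170588272 and RPL22 at chr1:6241329-6269449 on GRCh37, both on the minus strand. No exon of RPL22L1 is shared with another annotated gene, and no named pseudogene carries its symbol, while 22 carry that of RPL22.

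**Figure D3:**
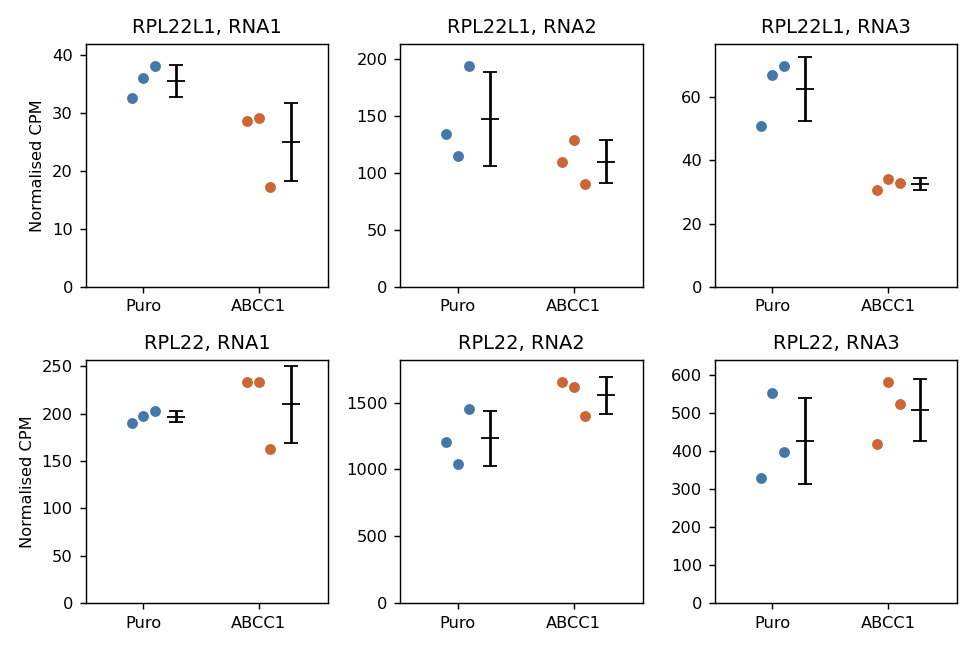
Normalised CPM (vertical axes, each from 0) of RPL22L1 (top) and RPL22 (bottom) in each library of RNA1, RNA2 and RNA3; points are libraries, the dash with bars is the mean ± SD of 3. RPL22L1 is lower in ABCC1(WT) than in Puro without overlap in RNA1 and RNA3, whereas RPL22 overlaps in all 3 experiments.

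The members named next, which have a known role beyond the common core, did not pass the edgeR quasi-likelihood test between the lines in any experiment. The stalk proteins RPLP0, RPLP1 and RPLP2, which recruit translation factors, had log2 fold changes of 0.11 ± 0.05, 0.04 ± 0.10 and −0.02 ± 0.08 in RNA1, 0.44 ± 0.21, 0.46 ± 0.20 and 0.47 ± 0.19 in RNA2, and 0.43 ± 0.26, 0.27 ± 0.23 and 0.34 ± 0.22 in RNA3. RPL5 and RPL11, which bind MDM2 when ribosome assembly is disturbed, had values of −0.08 ± 0.07 and 0.10 ± 0.10 in RNA1, 0.24 ± 0.21 and 0.36 ± 0.19 in RNA2, and 0.20 ± 0.24 and 0.28 ± 0.21 in RNA3. RPS6 had 0.06 ± 0.05, 0.43 ± 0.21 and 0.30 ± 0.24 in RNA1, RNA2 and RNA3. RPSA, known also as a laminin receptor precursor, had −0.12 ± 0.06, 0.25 ± 0.21 and 0.33 ± 0.23. RPS4X, encoded on the X chromosome, had −0.03 ± 0.05, 0.49 ± 0.21 and 0.22 ± 0.22. For each of these genes the standard error was larger in RNA2 and RNA3 than in RNA1. DESeq2 called RPLP0, RPLP1, RPLP2, RPL11, RPS6 and RPS4X higher in RNA2 and RPLP0 in RNA3. Without Puro library 2 the edgeR test called RPLP0, RPLP2, RPL11, RPS6, RPSA and RPS4X higher in RNA3, and without ABCC1(WT) library 3 it called RPLP0, RPL11 and RPS6 higher in RNA1.

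The second comparison sets the mRNA kit (RNA1) against the total RNA kit (RNA2 and RNA3). Here single members differed by far more than they did between the lines. Most genes of the table were lower in RNA1, with a median log2 difference of −3.96 over the 46225 genes tested, but the median over protein-coding genes was 0.37, and the placement of the members' own median depended on the scaling. It was 0.12 with TMM factors and −0.22 with size factors by relative log expression, −0.75 when only protein-coding genes entered and −0.84 for genes with at least 10 counts in every library. A change of scaling shifts the members together, so single differences are given here less the members' median. Among the members named here they ranged from −8.15 to 3.02. With TMM factors 94.0% of all genes were called, 22.6% higher and 71.4% lower, and of the members 38 were higher and 35 lower. Of these, 28 of the 84 members were higher and 23 lower in RNA1 by at least 1 on the log2 scale at an adjusted p of at most 0.05, against 15.0% and 68.4% of all genes.

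Among the members lowest with the mRNA kit, RPS3A, of the small subunit, had 114 to 246 counts in RNA1, 62667 to 85927 in RNA2 and 10923 to 17281 in RNA3, and its log2 difference was −8.15 from the members' median (SE 0.18, adjusted p = 2.94e-41 for the difference between kits). RPL7, of the large subunit, had 76 to 139 counts in RNA1 and 35682 to 49930 in RNA2 (log2 difference −7.72 from the members' median). RPL21 had 199 to 481 counts in RNA1 and 30418 to 49126 in RNA2 (−6.10), and RPL39 had 162 to 829 and 14852 to 22794 (−5.23). For these 4 genes every RNA1 library had fewer counts than every library of RNA2 and RNA3.

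At the other end RPL26, a protein near the exit of the tunnel, had 4122 to 9756 counts in RNA1, 993 to 1580 in RNA2 and 167 to 265 in RNA3, which put it 3.02 above the members' median. RPL11 had 43143 to 107074 counts in RNA1 and 14010 to 24678 in RNA2 (2.17 above the median). RPL41, the shortest ribosomal protein, and RPL30 were 2.08 and 1.99 above it. Of the 10 lowest members at least 8 stayed among the 10 lowest in each of 28 alternatives, fewest where every library had to hold at least 10 counts, and of the 10 highest at least 7 did, fewest against RNA2 or RNA3 alone.

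**Figure D4:**
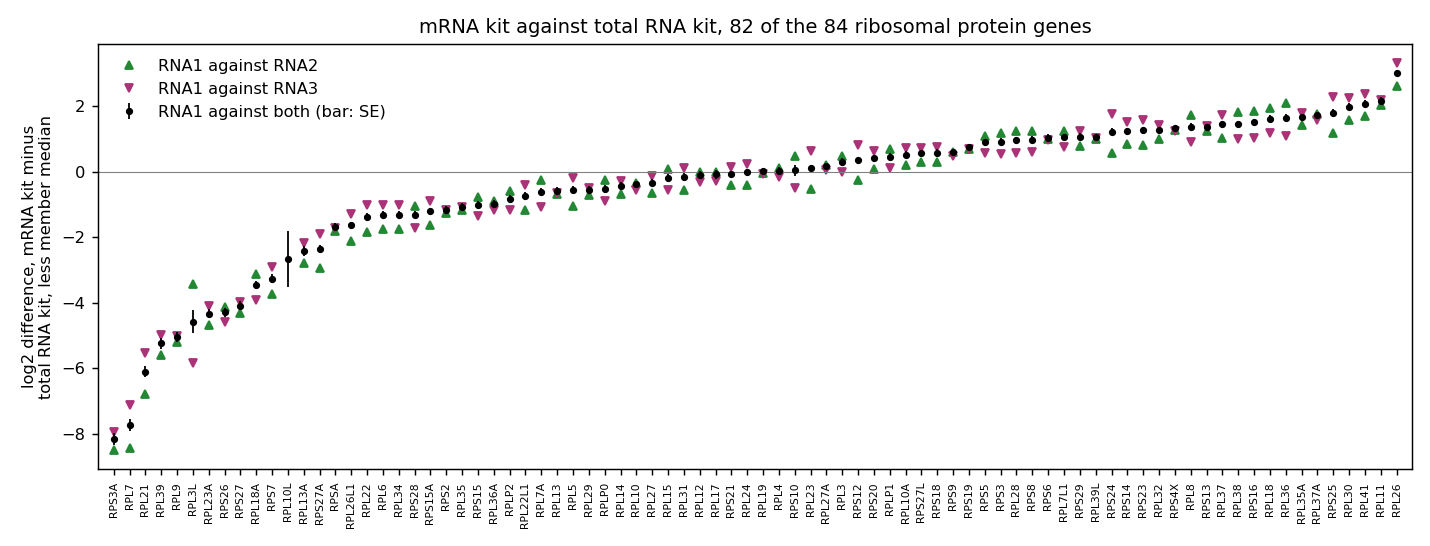
Log2 difference between the mRNA kit and the total RNA kit, less the median over the 84 ribosomal protein genes (vertical axis), for the genes plotted, in ascending order; black points are RNA1 against RNA2 and RNA3 together with SE, triangles are RNA1 against each alone. The plot holds 82 of the 84 genes, which run from −8.15 for RPS3A to 3.02 for RPL26.

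Members that share most of their sequence with annotated pseudogenes were mostly lower with the mRNA kit, but so were others. The share of each principal transcript's 75-base windows that occurs letter for letter in an annotated pseudogene was set against the kit difference. The Spearman correlation over the 84 genes was −0.542, and it was −0.517 with windows of 50 and −0.576 with windows of 100 bases. With transcript length it was −0.0357. For the difference between RNA3 and RNA2, made with one kit, the correlation with the same 75-base share was −0.176. Of 15 members with at least 50% of windows shared, 11 were lower by at least 1 on the TMM log2 scale and 0 higher by that much, with a median of −3.14. Of 39 members with 5% to 50% shared, 10 were lower and 10 higher by at least 1, with a median of 0.033. Of 30 members with under 5% shared, 2 were lower and 18 higher by at least 1, with a median of 1.13. The 2 that were lower were RPL3L and RPL10L, whose counts in RNA2 and RNA3 were few. Among all genes 15.0% were called higher and 68.4% lower by at least 1. These counts use the TMM values themselves, whose placement depends on the scaling, and were not recomputed under the other scalings. They are descriptions over genes that share all libraries. The read lengths of the kits are not given in the sources used here, and their part in the difference was not tested.

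Such windows are printed here for members picked from both ends of the kit order. The numbers of exact copies do not part the ends clearly, with 6 for RPL39 and 4 for RPL26. For each gene, the 50-base stretch of coding sequence found in the largest number of annotated pseudogenes is printed, with its place on GRCh38. The first 3 are from among the members lowest with the mRNA kit and the last 2 from those highest with it.
RPS3A (chr4:151101030-151101079, plus strand), exact in 21 pseudogenes: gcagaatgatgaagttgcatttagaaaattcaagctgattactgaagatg
RPL21 (chr13:27256269-27256318, plus strand), exact in 21 pseudogenes: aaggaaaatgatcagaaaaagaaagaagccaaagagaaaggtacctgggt
RPL39 (chrX:119789933-119789982, minus strand), exact in 6 pseudogenes: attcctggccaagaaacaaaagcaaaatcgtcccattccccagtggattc
RPL26 (chr17:8379869-8379918, minus strand), exact in 4 pseudogenes: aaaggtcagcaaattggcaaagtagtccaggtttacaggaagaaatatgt
RPL11 (chr1:23695867-23696351, plus strand, spanning an intron), exact in 1 pseudogene: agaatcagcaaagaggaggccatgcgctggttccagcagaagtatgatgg
RPL26 does not follow the pattern simply, since 31.4% of its 75-base windows occur in pseudogenes and 49.6% in another gene of the annotation, and yet it was the highest member.

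**Figure D5:**
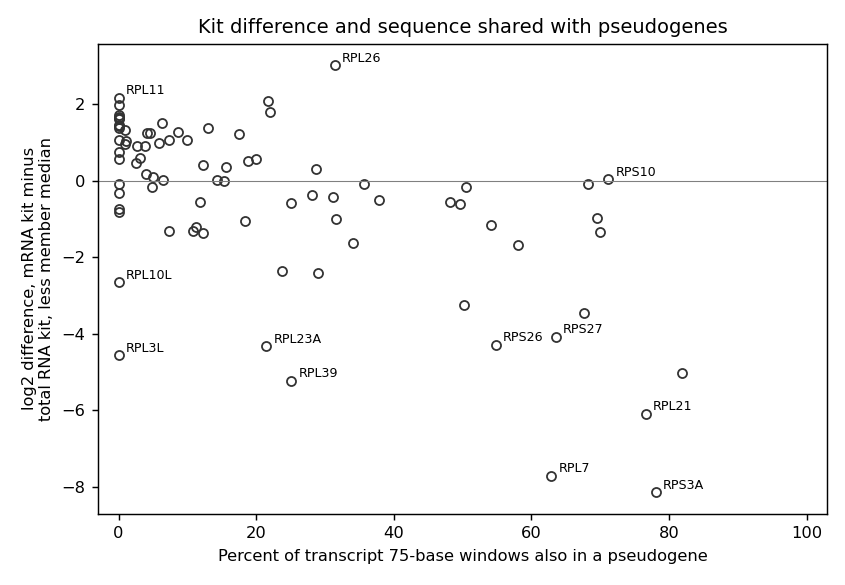
Log2 difference between the mRNA kit and the total RNA kit, less the members' median (vertical axis), against the percent of each transcript's 75-base windows found exactly in an annotated pseudogene (horizontal axis); each point is 1 gene, 82 of the 84 in all. Members with many shared windows lie lower (Spearman correlation −0.542 over the 84), while RPL39 lies low with 25.1% shared and RPL3L with 0%.

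The pseudogenes named after a member, 1589 in all, took 0.0588% to 0.0748% of the counts in RNA1, 0.168% to 0.229% in RNA2 and 0.185% to 0.237% in RNA3. Of the 1304 that could be tested, 1151 were lower and 23 higher in RNA1, with a median log2 difference of −3.87, close to that of all genes. A separate limit is overlap with other genes, since reads shared by the exons of 2 genes were dropped and strand was not used. Measured over all annotated exons of a gene, it affected 49 of the 84 members, up to 37.0% of the exon length in RPL10. Its Spearman correlation with the kit difference was −0.0223. On the principal transcript the picture can differ, since 73.0% of the 75-base windows of RPL36A also occur in another gene.

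Most paralog pairs with reads had another apparent ratio in RNA1 than in RNA2 and RNA3. RPL39L and RPL39 have coding sequences of 156 bases that differ at 8 bases (94.9% identity), printed here with the differing bases in capitals. Coordinates are on GRCh38, and introns are left out.
RPL39 (chrX:119786684-119791576, minus strand): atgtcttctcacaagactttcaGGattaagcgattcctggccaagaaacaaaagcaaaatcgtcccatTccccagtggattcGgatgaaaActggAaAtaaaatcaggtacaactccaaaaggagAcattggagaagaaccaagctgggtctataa
RPL39L (chr3:187121145-187121300, minus strand): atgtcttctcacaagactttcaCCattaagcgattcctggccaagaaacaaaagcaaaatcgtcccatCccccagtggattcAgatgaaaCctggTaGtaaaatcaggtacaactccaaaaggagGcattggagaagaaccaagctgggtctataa
Per kb of exon, RPL39L was 415% to 1173% of RPL39 in RNA1 libraries, but 6.48% to 11.6% in RNA2 and 10.7% to 17.5% in RNA3. Scaled over all 18 libraries together, RPL39L was at 42.7 to 48.3 CPM in RNA1, 27.3 to 48.8 in RNA2 and 9.68 to 15.1 in RNA3. RPL39 on that scale was at 7.88 to 21.8 CPM in RNA1, 549 to 910.2 in RNA2 and 130.1 to 215 in RNA3. The log2 difference between the kits was 1.20 ± 0.09 for RPL39L and −5.11 ± 0.16 for RPL39 with TMM factors. Between the lines RPL39L did not pass the test (RNA1 −0.16 ± 0.06, adjusted p = 0.0511), although its RNA1 groups did not overlap and 3 of 14 alternatives called it lower. RPL7L1, a nucleolar relative of RPL7, was 2923% to 3433% of RPL7 in RNA1 and 2.99% to 4.73% in RNA2. RPL26L1 went the other way, at 15.5% to 18.7% of RPL26 in RNA1 and 377% to 545% in RNA2, with 84.2% of the 438 coding bases alike. RPS27L was 8.99 ± 1.35% of RPS27 in ABCC1(WT) libraries of RNA1 and 0.379 ± 0.0415% in those of RNA2 (SD, n = 3 each), and the coding sequences of this pair share 78.0% of 255 bases. RPL22L1 to RPL22, by contrast, kept to between 12.4% and 39.6% in all 18 libraries.

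The third comparison sets RNA3 against RNA2, which share the kit but not the cell stock, as given above. The members were lower in RNA3 nearly throughout. Of 84 members 82 fell and 1, RPL3L, rose, where 39.1% of all 46225 genes were called, 19.6% lower and 19.5% higher. The median log2 difference was −1.68 over the members, 0.42 over all genes and −0.16 over protein-coding genes. By at least 1 on the log2 scale 65 members fell, against 6.6% of all genes. Of those that fell, RPL36 fell least (−0.52 ± 0.13), and it was alike for the stalk proteins RPLP0 (−0.90 ± 0.14), RPLP1 (−0.94 ± 0.13) and RPLP2 (−0.94 ± 0.13). It was largest for RPL7 (−2.84 ± 0.14) and RPL21 (−2.78 ± 0.14). RPL3L, whose level follows the background, rose by 0.89 ± 0.28 (adjusted p = 0.00975), and this call was lost without ABCC1(WT) library 1 of RNA3. The olfactory background and the total counts also differed between these experiments, and their part was not tested. Cryopreserved against freshly transfected cells, run and culture cannot be told apart here.

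Other genes of the translation apparatus, from lists of known members, behaved as follows between the lines. Of 27 tested translation factors and other mRNAs with a 5′ pyrimidine tract, 2 rose and 2 fell in RNA1 and none passed in RNA2 or RNA3, with medians of 0.03, 0.33 and 0.14. GAS5, a host of small nucleolar RNAs, rose by 0.28 ± 0.05 in RNA1 and NAP1L1, a histone chaperone, fell by 0.16 there (adjusted p = 0.0413). Of 29 ribosome biogenesis genes 10 rose and 2 fell in RNA1, 4 rose in RNA2 and 6 in RNA3, and none fell in RNA2 or RNA3, with medians of 0.07, 0.44 and 0.44. RRS1, needed to assemble the large subunit, rose by 0.36 ± 0.05, 0.86 ± 0.18 and 1.09 ± 0.17 in RNA1, RNA2 and RNA3, and NOB1, an endonuclease that matures the small subunit RNA, by 0.50 ± 0.05 in RNA1. The nucleolar genes POLR1B and NIP7 rose by 0.72 ± 0.16 in RNA2 and 0.75 ± 0.17 in RNA3. Of 75 mitochondrial ribosomal protein genes tested, 16 rose and 7 fell in RNA1, 3 rose in RNA2 and 11 in RNA3, with MRPS2 at 0.87 ± 0.15 in RNA2 and 0.76 ± 0.18 in RNA3. Of 16 genes around mTORC1, 2 rose and 3 fell in RNA1, where MYCN rose by 0.45 ± 0.09 and MYC fell by 0.47 (adjusted p = 0.0345), and none passed in RNA2 or RNA3. These counts are to be read against the shares of all genes given above for each experiment.

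Across the kits the same lists are given with TMM factors only, under which the members' median was 0.12 and 22.6% of all genes were higher and 71.4% lower. They were not recomputed under the other scalings. In RNA1, 71 of the 75 mitochondrial ribosomal protein genes were higher and 3 lower (median log2 difference 1.22), and 28 of 29 ribosome biogenesis genes were higher (median 1.57). Of the 27 translation factors and other pyrimidine-tract mRNAs 18 were higher and 7 lower (median 0.92), with TPT1, a growth-related protein, highest at 2.75 ± 0.11. Between RNA3 and RNA2 all 27 of these fell, with EIF3E at −3.10 ± 0.14 and ZFAS1 at −2.82 ± 0.13, as did 70 of the 75 mitochondrial ribosomal protein genes, against 19.6% of all genes.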

How the data were processed

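RNA in 18 libraries (3 experiments, 2 lines, 3 libraries each) was sequenced. The authors aligned reads with STAR 2.7.3a to GRCh37 with vector sequences added and deposited raw counts per gene from featureCounts (Subread 2.0.0), per the file headers without strand, and without pairs that fit several places or several genes. For RNA1 the labels name both kits, and the study's methods give the mRNA kit. Members and lists were chosen with earlier results of these data known.

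Counts were tested in R 4.3.3 with edgeR 4.0.16 (quasi-likelihood test, TMM factors, genes kept by filterByExpr at a minimum count of 10, Benjamini-Hochberg adjusted p at most 0.05), within each experiment and, for kits, RNA3 against RNA2 and the difference between experiments, in 1 fit over 18 libraries. DESeq2 1.42.0, other scalings and filters, an olfactory-background covariate, a replicate block and leaving out each library were alternatives. SE is the log2 fold change divided by the root of F. Named genes were a fixed set, the 5 highest and 5 lowest called members of each comparison and the 3 highest and lowest levels. The fitting code was run on simulated counts with the same spread set for every gene. That run checks the code and not the error rates in these libraries. Shared windows were exact matches between GENCODE 29 transcripts; symbols came from the same release. Results for 2 members entered all counts and fits but are not reported here.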

Additional observations from a re-analysis of the deposited data

How the results depend on the processing

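Fold changes of members kept their direction under most alternatives, but counts of calls did not. In RNA1 the 11 members higher became 29 with no filter on low counts, 0 with the background covariate and 1 with the spread shared across 18 libraries, and ranged from 3 to 28 when 1 library was left out; the 2 lower became 1 with no filter, 0 with the covariate, 1 by DESeq2 and 0 with the shared spread, with 0 to 3 when 1 library was left out. Over all genes 7348 of 35728 were called in either direction with no filter, 1255 of 16995 with the covariate and 1528 of 46225 with the shared spread. The main fit called 6382 of 16995, and DESeq2 called 5268 of 22996 with an adjusted p. The fit with the shared spread also took its scaling and gene filter over the 18 libraries, and its median was 0.18. In RNA2 the 0 higher became 36 by DESeq2 and 2 with the shared spread, where 4924 of 46225 genes were called in either direction. In RNA3 the 0 higher became 7 by DESeq2 and up to 35 (from 0) when 1 library was left out, and the median turned to −0.089 with the covariate. Between kits the members higher went from 38 to 21 under a minimum of 10 counts per library, and the members lower from 35 to 53 with protein-coding genes only. In these fits 12566 of 14773 and 16669 of 18645 genes were called in either direction. The median of 0.12 turned to −0.22 by relative log expression factors and by DESeq2, −0.84 under that minimum, −0.75 with protein-coding genes only and −0.58 against RNA2 only, and was 0.58 against RNA3 only. Against the same settings RPLP1 (−0.41 and −0.28), RPS27L (−0.32, −0.19 and −0.29) and RPL3 (−0.58, −0.45 and −0.10) turned lower with the count minimum, with protein-coding genes only and, for RPS27L and RPL3, against RNA2 only; RPL5 (0.39), RPL22L1 (0.18) and RPL10 (0.036) turned higher against RNA3 only. For RNA3 against RNA2 the median of −1.68 was −1.27 to −1.28 with relative log expression factors (−1.27), DESeq2 (−1.28) and the count minimum (−1.28) and −1.44 with protein-coding genes only, and the 1 higher became 0 with the count minimum and 0 to 1 when 1 library was left out. The cause of these shifts was not tested.

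Replicate numbers did not pair the libraries. The correlation of deviations within numbers was −0.185 to −0.00829 in RNA1, −0.176 to −0.0102 in RNA2 and −0.0501 to 0.118 in RNA3. A replicate block gave 8 members higher and 2 lower in RNA1, 0 and 0 in RNA2 and 0 and 1 in RNA3. Over all genes it called 5356 of 16995, 710 of 34091 and 1885 of 36509 in either direction. Counts per library were lowest in RNA3, at 8866994 to 13332413, and the part of depth in the calls was not tested.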
